A study of Mus musculus with 5 samples.

Results

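Receptors for neurotransmitters and other signals were compared between adult mouse retina and newborn mouse cortex. The genes were chosen by symbol, from the patterns of the glutamate, GABA, glycine, acetylcholine, monoamine, neuropeptide, purine and lysophospholipid receptor families and of the numbered Gpr genes. The rule found 34 genes with 41 probes, of 8944 named genes on the array. All 34 had a probe with a value on each of the 5 arrays, and 39 of the 41 probes entered the gene means. They fell into 9 of the 15 receptor classes of the rule: 6 ionotropic glutamate receptor genes, 1 metabotropic glutamate receptor, 1 GABA-A receptor subunit, 1 nicotinic and 1 muscarinic acetylcholine receptor, 1 neuropeptide receptor, 2 purine receptor family genes, 5 lysophospholipid receptors and 16 numbered Gpr genes. In the 6 other classes (GABA-B, glycine, serotonin, dopamine, adrenergic and histamine receptors) no probe listed with a single symbol matched.

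Total RNA came from 2 pools, adult retina of the C57/B6 strain and Swiss-Webster cortex from postnatal day 1, and both were hybridised together on 5 Agilent arrays that the labels call technical replicates. Retina RNA carried the dye Cy5 and cortex RNA Cy3 on every array, so tissue, age, strain and dye cannot be told apart. All p-values measure the spread between arrays of the same pools, which is technical, and not that between animals. Values are log2 ratios of retina over cortex, as mean ± SD over n = 5 arrays. Neither the log base nor this direction is stated in the labels, and both are the likely reading: with the opposite direction all signs would turn. Higher or lower in retina is written of genes that passed limma's 2-fold test, in which a log2 ratio must lie beyond 1 on either side, with Benjamini-Hochberg adjustment over 8798 genes at 0.05. Spot intensities were not used here, so which probes stood above background is unknown.

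Ionotropic receptors are ion channels opened by their transmitter. AMPA and kainate receptors carry fast glutamate excitation, and GABA-A receptors carry fast inhibition. G protein-coupled receptors (GPCRs) span the membrane with a bundle of helices and signal more slowly, through G proteins. In the retina, glutamate passes the signal from photoreceptors through bipolar cells to ganglion cells, while amacrine and horizontal cells use mainly GABA and glycine. Cortical neurons build up their receptors around and after birth.

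The promoters below are shown for the called genes and the AMPA receptor genes that RefSeq's table for build GRCm38.p6 held: Gria2 and Gria4, whose mean log2 ratios were -1.09 and -0.10, and Gabrb2 and Gpr161, both lower in retina. Each runs from 250 bases before a gene start to 50 after it. Where several starts were listed (3 for Gabrb2, 2 for Gpr161), the most upstream is printed. Capitals mark matches to 5 motifs searched on both strands: the GC box with the letters GGGCGG, the TATA box with the letters TATAAA, the cyclic AMP response element with the letters TGACGTCA, the left part of the RE1 element, which the neuronal gene repressor REST binds, with the letters CAGCACC, and its right part with the letters GGACAGC.
Gria2, chr3:80802786-80803085, minus strand: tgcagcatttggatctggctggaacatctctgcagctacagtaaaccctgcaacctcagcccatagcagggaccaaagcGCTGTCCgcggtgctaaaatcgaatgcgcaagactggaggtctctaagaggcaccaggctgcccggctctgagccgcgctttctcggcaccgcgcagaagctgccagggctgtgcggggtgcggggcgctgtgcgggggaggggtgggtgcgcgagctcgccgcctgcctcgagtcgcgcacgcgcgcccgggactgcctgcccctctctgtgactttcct
Gria4, chr9:4796185-4796484, minus strand: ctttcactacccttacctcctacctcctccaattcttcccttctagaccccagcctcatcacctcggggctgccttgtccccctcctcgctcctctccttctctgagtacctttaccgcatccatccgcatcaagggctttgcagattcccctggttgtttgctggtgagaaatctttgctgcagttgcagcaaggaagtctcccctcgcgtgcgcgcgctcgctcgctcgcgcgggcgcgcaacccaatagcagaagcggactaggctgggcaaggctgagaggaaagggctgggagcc
Gabrb2, chr11:42420190-42420489, plus strand: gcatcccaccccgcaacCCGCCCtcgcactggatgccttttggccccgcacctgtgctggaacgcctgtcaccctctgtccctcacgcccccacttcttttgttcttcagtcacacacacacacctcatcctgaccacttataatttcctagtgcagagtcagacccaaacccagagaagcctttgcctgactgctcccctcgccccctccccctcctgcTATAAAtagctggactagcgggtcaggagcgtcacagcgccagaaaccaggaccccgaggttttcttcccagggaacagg
Gpr161, chr1:165295516-165295815, plus strand: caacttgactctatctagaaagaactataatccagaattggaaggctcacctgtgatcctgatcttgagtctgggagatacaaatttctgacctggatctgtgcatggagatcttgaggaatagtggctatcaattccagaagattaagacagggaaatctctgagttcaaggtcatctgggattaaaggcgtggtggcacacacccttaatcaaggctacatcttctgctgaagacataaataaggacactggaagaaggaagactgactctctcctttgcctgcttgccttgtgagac

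The Gria2 window held 1 match, to the right part of RE1 on the minus strand, with its leftmost base 171 bases before the start. That motif occurred in 6.56% of 32851 promoter windows. Gabrb2 held TATAAA 30 bases before its most upstream start, a motif in 13.6% of windows, and a GC box, found in 35.7%. The windows of its later starts, not printed, held none of the 5 motifs. The printed Gria4 and Gpr161 windows held none of the 5 motifs. Promoters were found for 26 of the 34 genes, in 40 windows. Of these 35% held a GC box, 12.5% TATAAA and 5% the right part of RE1. These matches describe the letters and say nothing of binding, which was not measured.

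Of the 34 receptor genes, 3 were lower in retina than in newborn cortex by the 2-fold test and 0 were higher. The lower genes were Gria1, an AMPA receptor subunit, Gabrb2, a GABA-A receptor beta subunit, and Gpr161, a GPCR of the primary cilium that restrains Hedgehog signalling. Over all genes tested, 3.83% were lower and 2.80% higher. At an unadjusted p below 0.05, limma's 2-fold test gave 4 receptor genes, the fourth being Gpr180, above 0. The same threshold gave 688 of the 8798 genes tested. Fewer cells that express a receptor and less of its RNA per cell cannot be told apart in these pools.

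**Figure D1:**
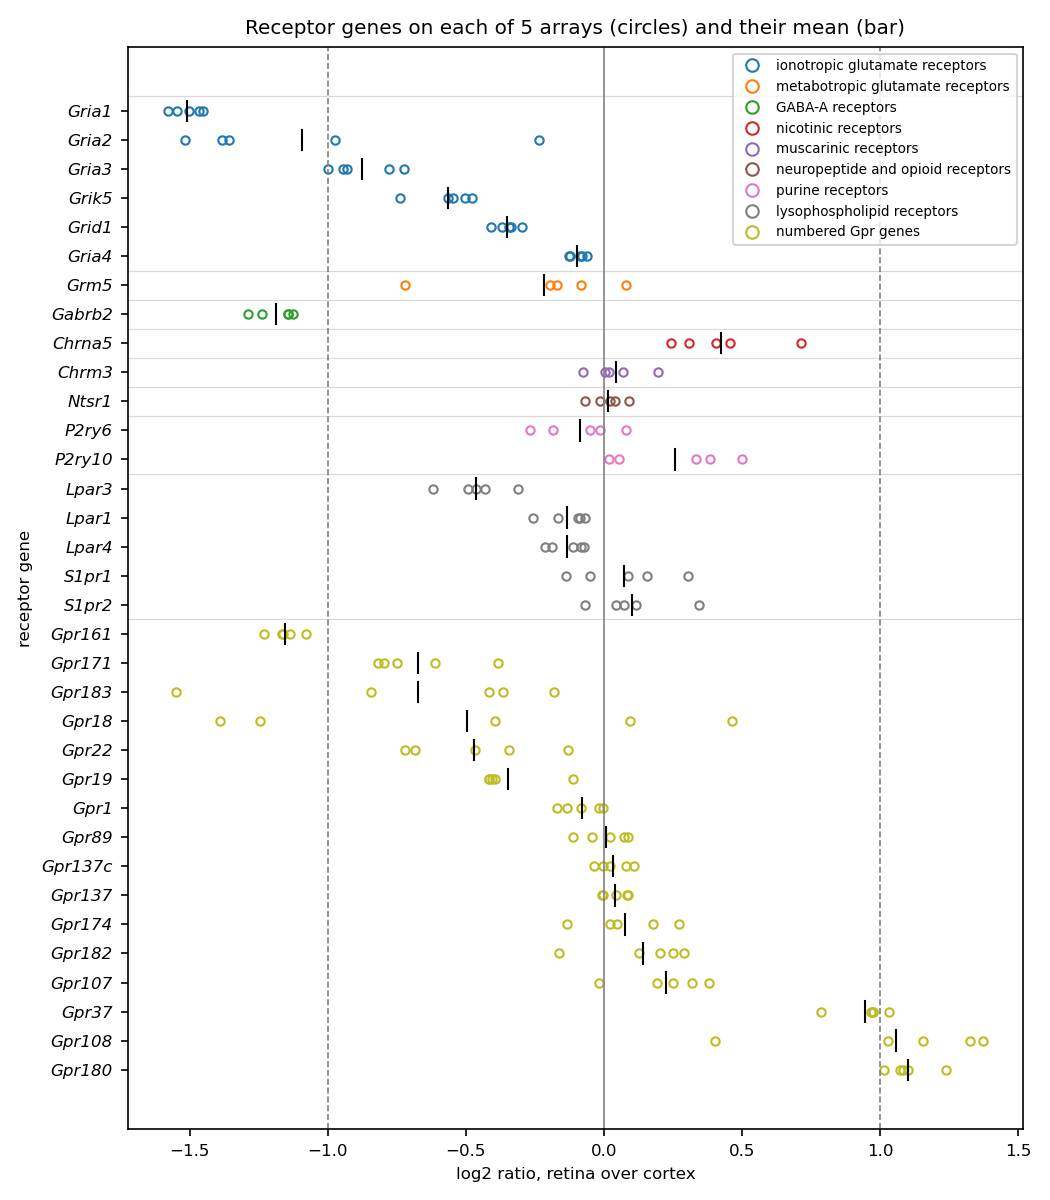
Log2 ratio of retina over cortex (horizontal axis) for each of the 34 receptor genes (rows), with a circle for each of 5 arrays, a bar for the mean and colours for the receptor class. Dashed lines mark 2-fold. Gria1, Gabrb2 and Gpr161 lie below -1 on all 5 arrays, while Gpr18 spreads from -1.39 to 0.46.

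The 6 measured genes of the ionotropic glutamate receptor family all lay below 0. Each had a negative ratio on all 5 arrays, while 73.5% of all genes shared a sign, of either direction, on all 5. The median of the 6 was -0.72 against -0.005 over all genes, and all 6 passed limma's test against 0. That test called 36.7% of all genes below 0 and 37.0% above, so passing it is common on these arrays. Only Gria1 of the 6 also passed the 2-fold test.

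Gria1, which encodes the AMPA receptor subunit GluA1, read -1.50, -1.47, -1.55, -1.58 and -1.45 on arrays 1 to 5. Every array lay below -1. The mean was -1.51 ± 0.05, or 2.85-fold lower in retina, with an adjusted p of 3.0e-05 from limma's 2-fold test. Its pair of probes differed in size. The first read between -2.08 and -2.05, with a mean of -2.06 ± 0.01, and the second between -1.09 and -0.85, with a mean of -0.96 ± 0.10. Tested alone, the first probe passed, with an adjusted p of 5.2e-07 from limma, and the second did not, with an adjusted p of 1. Both probes were below 0 on all 5 arrays, but the fold of Gria1 rests on which is used.

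Gria2 encodes GluA2, the subunit that makes AMPA receptors impermeable to calcium once its RNA is edited. It read -0.23 on array 1, -1.52 on array 2, -0.97 on array 3, -1.38 on array 4 and -1.36 on array 5. Array 1 stood well above the others, and the mean of -1.09 ± 0.52 did not pass the 2-fold test of limma (adjusted p = 1). Without array 1 the mean was -1.31, with an adjusted p of 0.152 from limma. Gria3 (GluA3) repeated more closely, at -0.998, -0.93, -0.78, -0.95 and -0.72. Its mean of -0.88 ± 0.12, or 1.83-fold, has a 95% interval of -0.99 to -0.76 from limma, short of 2-fold.

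Gria4, the gene of GluA4, had the AMPA subunit ratio closest to 0. It read -0.08, -0.06, -0.12, -0.09 and -0.13, all close to 0, with a mean of -0.10 ± 0.03. Its SD was the smallest of the 34 receptor genes. On each array the Gria4 ratio was above that of Gria2, by 0.15, 1.46, 0.85, 1.30 and 1.23 log2, a mean difference of 0.998 ± 0.52. The exact two-sided sign-flip permutation test gave p = 0.0625, the smallest that 5 arrays allow, and 0.188 after adjustment over the 3 pairs measured, of 19 subunit pairs listed. Gria1 was below Gria2 by 0.42 ± 0.53 on average, with the order turned on array 2 (exact permutation p = 0.125, adjusted 0.188). Gria3 minus Gria2 was 0.22 ± 0.58, above 0 on 4 of 5 arrays (exact permutation p = 0.438, adjusted 0.438). Single arrays decide the size of these last differences. Without array 1, Gria1 minus Gria2 was -0.20 and Gria3 minus Gria2 0.46, and the latter was 0.13 without array 2 and 0.11 without array 5. These differences are between ratios and not between levels of the subunits.

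**Figure D2:**
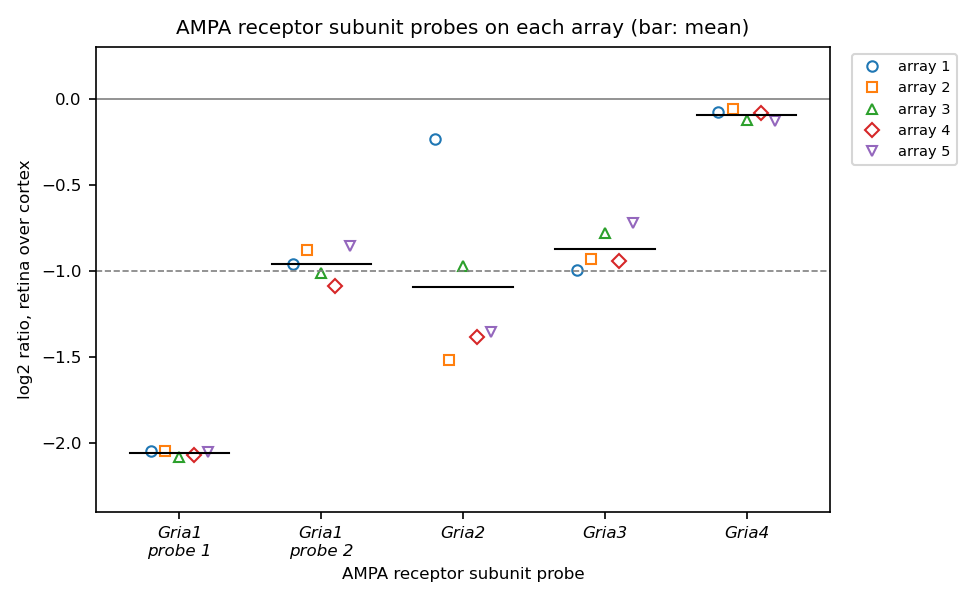
Log2 ratio of retina over cortex (vertical axis) for the 5 probes of AMPA receptor genes (horizontal axis), with a symbol for each array and a bar for the mean. The dashed line marks 2-fold lower. The Gria1 probes lie at -2.06 and -0.96, Gria4 lies near 0 on every array, and Gria2 on array 1 stands at -0.23.

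Grik5, a kainate receptor subunit that binds glutamate with high affinity, read between -0.74 and -0.48, with a mean of -0.57 ± 0.10. Grid1, a delta receptor of synapse organisation that binds cerebellins, read between -0.41 and -0.30, with a mean of -0.35 ± 0.04. Neither passed the 2-fold test. The metabotropic receptor gene Grm5, a GPCR for glutamate, read -0.20, -0.72, -0.17, -0.08 and 0.08, so its sign was mixed. Its mean of -0.22 ± 0.30 had a 95% interval of -0.49 to 0.05 from limma.

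Gabrb2 was the single GABA receptor subunit measured. Its ratios were -1.15, -1.13, -1.24, -1.15 and -1.29, all below -1, with a mean of -1.19 ± 0.07, or 2.28-fold lower in retina (adjusted p = 0.0099 from limma's 2-fold test). The call is close to the 2-fold minimum. With the arrays scaled to the same spread the ratio was -1.20 and limma's adjusted p 0.247, and without arrays 1 and 4 the ratio was -1.22 and the adjusted p 0.0924. GABA-A receptors are pentamers, and no alpha or gamma subunit was among the genes measured.

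Acetylcholine receptor genes lay near 0 or above it. Chrna5, an accessory nicotinic subunit, was above 0 on all 5 arrays, from 0.24 to 0.71, with a mean of 0.42 ± 0.18. It passed limma's test against 0 (adjusted p = 0.0016) but not the 2-fold test. The muscarinic receptor gene Chrm3, coupled to calcium release, ran from -0.08 to 0.20, with a mean of 0.04 ± 0.10. Ntsr1, the receptor for the peptide neurotensin, ran from -0.07 to 0.09 and averaged 0.01 ± 0.06. Its ligand gene Nts was lower in retina, at -3.69 ± 0.06, so the receptor ratio stayed within 0.1 of 0 on every array where the ligand's lay below -3.6.

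The 7 genes of the purine and lysophospholipid receptor classes all lay within 0.5 log2 of 0, as did 72% of all genes. Lpar3, a receptor for lysophosphatidic acid, was the lowest, between -0.62 and -0.31, with a mean of -0.46 ± 0.11. Lpar1, best known from myelinating and progenitor cells, averaged -0.14 ± 0.08 and Lpar4 -0.13 ± 0.06, both below 0 on all 5 arrays. A second Lpar4 probe, with no value on array 5, averaged -0.70 ± 0.20 over the other 4 arrays, and with probes of at least 3 values Lpar4 stood at -0.36. The sphingosine phosphate receptor genes S1pr1 and S1pr2 were mixed in sign, at 0.07 ± 0.17 and 0.10 ± 0.15. P2ry10, a lymphocyte receptor for lysophosphatidylserine, was above 0 on all 5 arrays, with a mean of 0.26 ± 0.21. P2ry6, the receptor for UDP on microglia and other cells, averaged -0.09 ± 0.14 with mixed signs. None of these 7 passed limma's 2-fold test, adjusted or not.

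The numbered Gpr genes, named in order of cloning and not by family, spread to both sides. Of 16, 1 was lower by the 2-fold test (6.25%), 0 were higher and 15 did not pass, with a median of 0.02. Over all genes 3.83% were lower and 2.80% higher. Gpr161 was the lower gene, at -1.23, -1.08, -1.14, -1.17 and -1.16. All arrays lay below -1, and the mean was -1.16 ± 0.06, or 2.23-fold lower in retina (adjusted p = 0.013 from limma). The call did not hold in limma's fit without array 4 (-1.15, adjusted p = 0.0635), without arrays 1 and 4 (-1.13, adjusted p = 0.236) or with scaled arrays (-1.17, adjusted p = 0.347).

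On the retina side stood Gpr180, Gpr108 and Gpr37. Gpr180, a protein with the predicted membrane spans of a GPCR, read 1.07, 1.10, 1.01, 1.08 and 1.24. All arrays lay above 1, but the mean of 1.10 ± 0.08, or 2.15-fold, did not pass (adjusted p = 0.217 from limma's 2-fold test). Gpr37, an orphan receptor and parkin substrate abundant in oligodendrocytes, read 0.79, 0.97, 1.03, 0.97 and 0.97. Its mean was 0.95 ± 0.09 and its 95% interval ran from 0.85 to 1.04 in limma's fit.

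Gpr108, a membrane protein of the Golgi, had probes that differed in repeatability. The first read 1.58, 1.52, 1.45, 1.55 and 1.60, and the second 1.16, -0.72, 1.20, 0.50 and 0.71. Alone, the first probe passed limma's 2-fold test, at 1.54 ± 0.06 with an adjusted p of 3.5e-05, while the second, at 0.57 ± 0.78, did not (adjusted p = 1). The gene mean of 1.06 ± 0.39 did not pass (adjusted p = 1). Its relative Gpr107, also of the Golgi, averaged 0.22 ± 0.15.

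Gpr18 read 0.46, 0.09, -0.39, -1.25 and -1.39 on arrays 1 to 5, so the sign itself changed between arrays of the same RNA. Its SD of 0.81 was the largest of the 34 genes. Gpr183, a receptor for oxysterols, read -0.42, -0.18, -0.37, -1.55 and -0.84, with array 4 the lowest. Gpr171 was below 0 throughout, between -0.82 and -0.38, with a mean of -0.67 ± 0.18, or 1.59-fold. It passed limma's test against 0 (adjusted p = 0.00018) and not the 2-fold test. Gpr174, a receptor for lysophosphatidylserine, averaged 0.08 ± 0.16 with mixed signs.

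The orphan receptor genes Gpr22 and Gpr19 were below 0 on all 5 arrays, at -0.47 ± 0.25 and -0.35 ± 0.13. The 3 probes of Gpr22 agreed in direction, with means between -0.59 and -0.26. Gpr182, a receptor of vessel lining cells, averaged 0.14 ± 0.18 and Gpr1, a chemerin receptor, -0.08 ± 0.07. Gpr89, which regulates Golgi pH, and the lysosomal membrane genes Gpr137 and Gpr137c lay at 0.01 ± 0.08, 0.04 ± 0.04 and 0.03 ± 0.06. A Gpr symbol can thus stand for a protein of inner membranes rather than a surface receptor.

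As a group the 34 receptor genes had small ratios. Their median log2 ratio was -0.09, against -0.005 over all genes, and 23 of 34 (67.6%) lay within 0.5 of 0, as did 72% of all genes. Against 0, 15 were below (44.1%, against 36.7% of all genes) and 6 above (17.6%, against 37.0%), and 13 did not pass. In 21 of 34 (61.8%) the 5 arrays shared a sign, against 73.5% of all genes. The median SD between arrays was 0.114 in the receptor genes and 0.0852 over all genes. An SD above 0.2 occurred in 7 of 34 (20.6%) and in 13.2% of all genes. No test was made of these differences between the receptor genes and the rest.

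**Figure D3:**
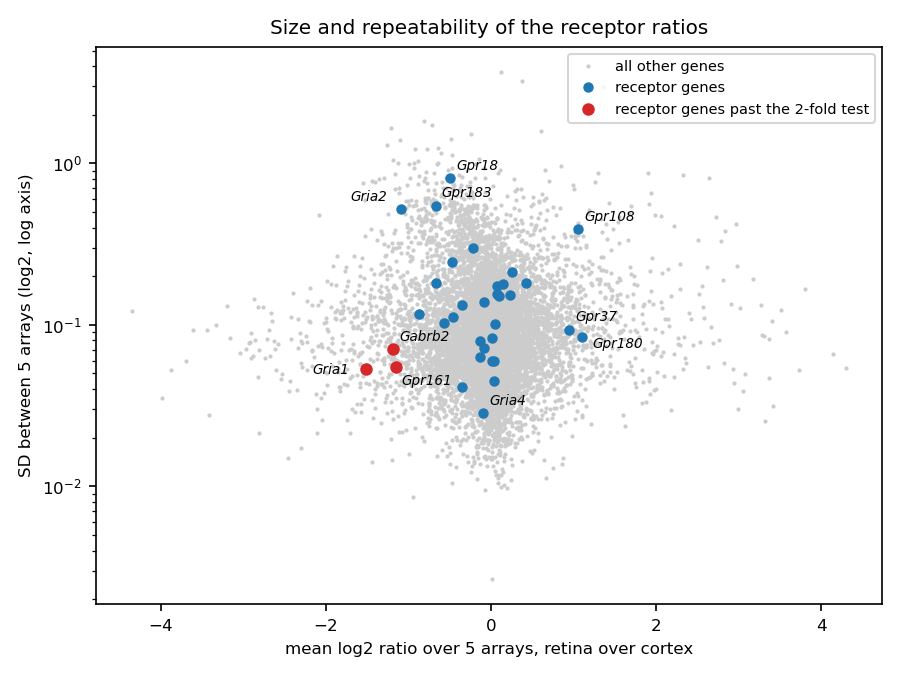
Mean log2 ratio over 5 arrays (horizontal axis) against the SD between arrays (vertical log axis) for all genes (grey) and the 34 receptor genes (blue, with red for those past the 2-fold test). Gria1, Gabrb2 and Gpr161 combine a ratio below -1 with an SD of at most 0.07, while Gria2 and Gpr108 have means beyond 2-fold with an SD of 0.52 and 0.39.

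Genes listed as partners of these receptors showed both directions. Over all genes 3.83% were lower and 2.80% higher by the 2-fold test. No partner list was tested against these shares. Of 28 listed proteins that assist or anchor glutamate receptors, 10 were measured: 1 was lower, 1 higher and 8 did not pass. Neto2, an auxiliary subunit of kainate receptors, read -2.33, -2.29, -2.31, -2.31 and -2.28, so it was lower in retina on every array, at -2.31 ± 0.02. Nsf, an ATPase that unfolds SNARE complexes and binds GluA2, was higher, at 1.21 ± 0.08. With the lower of its 2 probes alone Nsf stood at 0.44 and did not pass (adjusted p = 1 from limma). Nor did it pass limma's test with scaled arrays (adjusted p = 0.156) or without arrays 1 and 4 (adjusted p = 0.146). The list median was -0.35.

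Of 13 listed genes for the anchoring and traffic of GABA and glycine receptors, 5 were measured, with 2 lower and 1 higher and a median of -0.243. The lower genes were Mdk, the growth factor midkine, at -1.61 ± 0.10, and Map1b, a microtubule-binding protein of growing axons, at -1.55 ± 0.11. Map1b is better known from growing neurons than from receptor anchoring. Mdk is a secreted growth factor and not an anchoring protein, so its place on this list is doubtful. The higher gene was Gabarapl1, of the GABA receptor-associated protein family that also serves autophagy, at 1.24 ± 0.09. Gphn, the gephyrin scaffold itself, was at -0.24 ± 0.06 and did not pass.

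Of 28 listed GPCR kinases, arrestins and RGS proteins, which end receptor signals, 12 were measured, with a median of -0.157. None of the 12 passed limma's 2-fold test, adjusted or not. The farthest from 0 was Rgs19, a regulator that shortens G protein signals, at -0.94 ± 0.07. Of 38 listed genes for transmitter synthesis, transport and breakdown, 12 were measured, with a median of -0.15. Of these 1 was lower, Maoa, the monoamine oxidase that degrades serotonin and noradrenaline, at -1.21 ± 0.08 (adjusted p = 0.01 from limma, and 0.226 with scaled arrays). Of 28 listed neuropeptide genes 3 were measured, with a median of -0.155, and Nts alone passed.

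**Figure D4:**
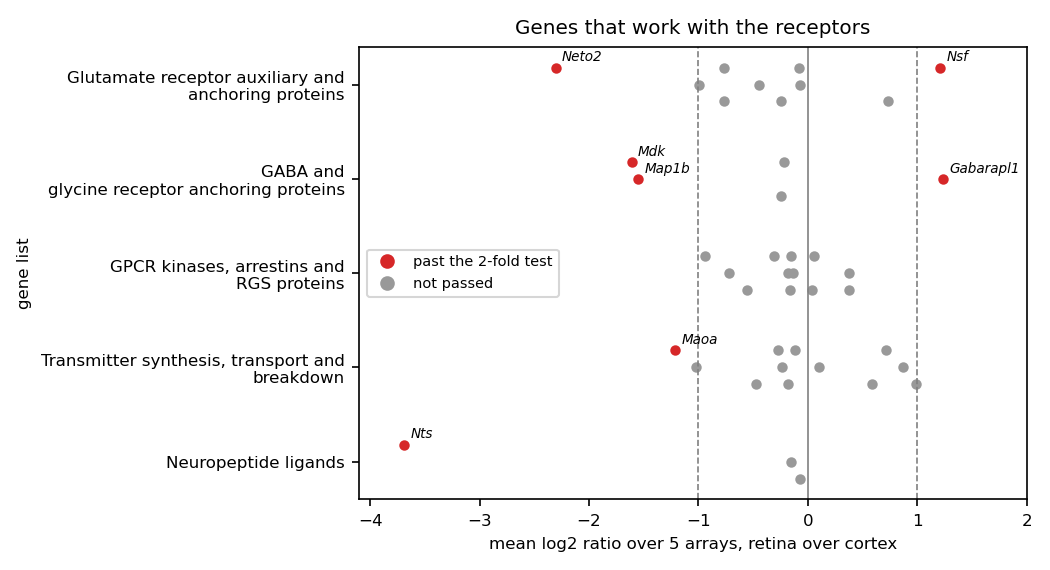
Mean log2 ratio of retina over cortex (horizontal axis) for measured genes of 5 lists of receptor partners (rows, points spread vertically for clarity), with genes past the 2-fold test in red. Neto2, Mdk, Map1b, Maoa and Nts lie below -1, and Nsf and Gabarapl1 above 1.

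Tissue markers were read on the same arrays, and their relation to the receptor ratios was not tested. Of 9 listed retina markers 3 were measured (Cdhr1, Opn1sw and Otx2), and all 3 were higher in retina, between 3.28 and 4.30. Of 8 listed newborn cortex markers 4 were measured. Of these 3 were lower, Dcx, Sox11 and Neurod6, between -3.99 and -2.69, and Neurod2 stood at -0.42. How far the makeup of cell types and the immaturity of cortical neurons enter the receptor ratios was not tested. The columns correlated with r of 0.847 to 0.95 over all 21446 probes, so all arrays ran in the same direction.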

How the data were processed

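Adult retina and newborn cortex RNA pools were compared on 5 two-colour arrays. The deposited table holds signed values read as log10 ratios. Their base and direction are likely and not stated, no source used here gives background correction or dye normalization, and 5 values lie at the limits of 2 and -2. Ratios were multiplied by 3.32 to give log2, and an exact 0 was read as no value. Of 21446 probes, 11813 had a single symbol, 559 several and 9074 none listed. Gene identifiers matched 11782 probes to RefSeq symbols (GRCm38.p6). A gene's value was the mean of those probes that were complete over the 5 arrays (8798 genes, 11500 probes). One gene that fits the symbol pattern is not reported here.

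An intercept was fitted with limma 3.58.1 in R 4.3.3, tested with treat against 2-fold and with eBayes against 0, two-sided. The 2-fold test was run on simulated data, in which changed genes lay farther from 0 than Gabrb2 and Gpr161. Calls this close to the 2-fold minimum were thus not checked. The members, lists and tests were chosen with earlier results of these data known. Every member past the 2-fold test and the highest and lowest of each class were to be named, and from each other list the 2 genes farthest from 0 that passed, or else the 1 farthest from 0. The remaining members and genes were named after their values were seen. Alternatives covered centring, scaling, missing values, probe rule, prior, array weights, log base, minimum fold and arrays left out.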

Additional observations from a re-analysis of the deposited data

Results flagged for a closer look

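In 2 of 48 measures checked, 1 array stood far from the other 4, and chance gives about 5% of them. Array 5 gave -0.11 for Gpr19, where the others lay between -0.42 and -0.39. Array 1 gave 0.79 for Gpr37, where the others lay between 0.97 and 1.03. Neither gene was called by the 2-fold test, and the sign of each was the same on all 5 arrays.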

How the results depend on the processing

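The reading of exact 0 as 0, the fit without arrays 1 and 4 and the fit of each probe alone were chosen after seeing the data. The count of 3 lower receptor genes fell to 1, Gria1, with arrays scaled to the same spread, where 3.03% of all genes were lower. It also fell to 1, Gria1, without arrays 1 and 4 (2.96% of all genes lower). It fell to 0 with a 4-fold minimum (0.614%) and with the deposited values read as log2 (0.0455%). In that last reading the list median was -0.028 and Gria4 minus Gria2 was 0.30. A 1.5-fold minimum gave 2 higher genes, Gpr180 and Gpr37, in place of 0, against 6.99% of all genes. It gave 4 lower genes in place of 3, with Gria3 added, against 9.01% of all genes. With the lower of its 2 probes for Gria1, Gria1 minus Gria2 was -0.97. Where all probes of a gene had to pass alone, 2 genes were lower, Gabrb2 and Gpr161, against 3.44% of all genes. Gria1 was not among them. Fits without 1 array each gave 2 to 3 lower and 0 higher genes. Over all genes they called 3.47% to 3.81% lower and 2.46% to 2.64% higher. Against 0 they gave 14 to 16 receptor genes below and 5 to 7 above. That test called 33.5% to 35.6% of all genes below and 33.2% to 35.5% above. The list median ran from -0.103 to -0.074. Over 15 alternatives, 510 values of single receptor genes were compared with the main fit. In 502 the 2-fold test gave the same result, but the 31 genes not called in that fit had no call to lose. All 8 values that lost a call came from the 3 called genes. Gria1 lost it in the reading as log2, and Gabrb2 also with scaled arrays and without arrays 1 and 4. Gpr161 lost it in the same fits as Gabrb2 and without array 4. Of the values with a called direction 0 turned sign, while 2 genes not called against 0 turned sign in 4 values. Of 150 such values of the partner and other genes named by the rule, 139 gave the same result and 11 lost a call. These were Nsf in 4, Maoa in 2, and Neto2, Mdk, Map1b, Ednrb and Opn1sw in 1 each, the reading as log2. Rgs19 and P2rx4, not called in the main fit, had no call to lose. Gabarapl1 was not among the genes followed, so how its call depends on the processing was not tested. No paired analysis was possible because there is 1 group, with both pools on each array. Signal over background is unknown, which limits how the ratios near 0 can be read.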

Other observations

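Other receptors, outside the symbol rule, were measured in a list of 66 GPCRs with a known ligand class. Of 17 measured, 1 was lower, 1 higher and 15 did not pass, with a median of 0.113. Over all genes 3.83% were lower and 2.80% higher. Limma's test against 0 put 8 of the 17 above 0 (47.1%, against 37.0% of all genes) and 6 below (35.3%, against 36.7%). Ednrb, the endothelin receptor B of glial and neural crest cells, read -3.05, -2.97, -2.76, -2.90 and -2.69, a mean of -2.87 ± 0.15, lower in retina on all 5 arrays by more than any of the 34 receptor genes described above. The cone opsin gene Opn1sw was the higher one, at 3.28 ± 0.09. Cnr1, the main cannabinoid receptor of neurons, stood at 0.40 ± 0.19 and Adcyap1r1, the receptor for the peptide PACAP, at 0.15 ± 0.07. Both were above 0 on all 5 arrays and did not pass the 2-fold test. On the other side Ackr3, at -0.87 ± 0.07, and Pth1r, at -0.75 ± 0.49, were below 0 on all 5 arrays and did not pass. P2rx4, an ATP-gated channel and the single measured gene of 14 other ligand-gated channels, stood at 0.42 ± 0.09 and did not pass either. Ednrb, Opn1sw and P2rx4 were named by the rule, and Cnr1, Adcyap1r1, Ackr3 and Pth1r after their values were seen.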
